A study of Homo sapiens with 12 samples.

Results

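The DNA mismatch repair genes MLH3, MSH3, MSH6, PMS1, PMS2 and EXO1 were followed in HCT116 and RKO, both established human cell lines from colorectal cancers. The 6 genes were chosen by name, and all 6 were found among the 20263 Ensembl genes of both deposited tables. Messenger RNA was sequenced in 12 libraries, 3 in each of 4 groups: HCT116 with a CKAP2L overexpression construct, HCT116 with empty vector, RKO with a short hairpin RNA against CKAP2L (shCKAP2L), and RKO with a negative control (NC). The HCT116 control therefore carried a construct too, while the titles name the RKO control only as NC. CKAP2L is a mitotic spindle protein, and the study raised its level in one line and lowered it in the other. The labels give no hairpin sequence and do not say whether the cells were pools or single clones.

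Mismatch repair corrects bases that were wrongly paired or slipped during DNA replication. A MutS dimer finds the error, a MutL dimer is recruited and nicks the new strand, an exonuclease removes the stretch around the error, and the replication machinery fills the gap. MSH6 and MSH3 are alternative partners within MutS dimers: MutSα, with MSH6, reads single mispairs and short loops, and MutSβ, with MSH3, reads longer loops. PMS2, MLH3 and PMS1 are alternative partners within MutL dimers. PMS2 carries the endonuclease of somatic repair (MutLα), MLH3 acts mainly in meiotic crossing over (MutLγ), and the role of PMS1 (MutLβ) is less clear. EXO1 is the exonuclease. Both lines are known to be mismatch repair deficient, so the mRNA levels given here are not measures of repair activity, which was not assayed.

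The genes lie on 5 chromosomes of GRCh38 (RefSeq positions). MSH6 spans chr2:47783145-47810101 and PMS1 chr2:189784450-189877629, both on the plus strand. MSH3 spans chr5:80654652-80876815 and EXO1 chr1:241847986-241889939, both on the plus strand. PMS2 spans chr7:5970925-6009106 and MLH3 chr14:75013775-75051467, both on the minus strand. By their RefSeq starts, PMS2 and PMS1 each start back to back with another gene. AIMP2, a scaffold protein of the aminoacyl-tRNA synthetase complex, starts 166 bases from PMS2 on the opposite strand. ORMDL1, a regulator of sphingolipid synthesis, starts 111 bases from PMS1. In GENCODE 29, PMS1 starts at 189784085 and ORMDL1 at 189784371, so there PMS1 and ORMDL1 overlap. The stretches between the RefSeq starts are shown because the paired genes are compared further on. The window of EXO1 is shown because this gene fell most of the 6 in RKO. The PMS2 stretch is chr7:6009107-6009271 on the minus strand, and the PMS1 stretch is chr2:189784340-189784449 on the plus strand. The EXO1 window is chr1:241847954-241848203 on the plus strand, the 250 bases before a RefSeq transcript start that lies within the span of the gene. All run in the direction of the mismatch repair gene (RefSeq, GRCh38.p14). Capitals mark matches to CCAAT (or its complement ATTGG) and to the cAMP response element TGACGTCA.
PMS2 to AIMP2: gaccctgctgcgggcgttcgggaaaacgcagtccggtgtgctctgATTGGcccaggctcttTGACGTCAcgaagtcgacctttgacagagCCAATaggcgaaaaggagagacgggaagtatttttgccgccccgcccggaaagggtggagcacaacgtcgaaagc
PMS1 to ORMDL1: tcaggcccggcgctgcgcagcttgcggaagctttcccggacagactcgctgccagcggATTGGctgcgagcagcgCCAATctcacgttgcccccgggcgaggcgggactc
EXO1: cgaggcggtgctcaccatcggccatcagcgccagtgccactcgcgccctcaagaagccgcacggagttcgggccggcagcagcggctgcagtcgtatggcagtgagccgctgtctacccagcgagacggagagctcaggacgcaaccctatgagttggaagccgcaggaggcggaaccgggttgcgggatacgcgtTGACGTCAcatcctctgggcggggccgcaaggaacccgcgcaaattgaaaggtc

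Both back-to-back stretches held CCAAT once on each strand. Among 34943 RefSeq promoter windows (250 bases before to 50 after a start, both strands searched), 34.6% held CCAAT. TGACGTCA stood in the PMS2 stretch, in the printed EXO1 window but not in the other EXO1 window, and in 1.84% of all windows. It was added to the search after the sequences had been read, and it overlaps no other motif there. Of the E2F motifs searched, TTTGGCGC matched in the MSH3 window (0.65% of all windows) and TTTCCCGC in an MSH6 window (1.62%), which also held CCAAT. Neither matched in the windows of the other genes, and TTTGAA, the cell cycle homology region (15.2% of all windows), matched in none of the 6 genes. A match is a string of letters and not a measured binding site.

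CKAP2L itself was at 219 to 231.04 TPM in HCT116 CKAP2L libraries, against 12.75 to 15.15 TPM in vector libraries. It was at 7.59 to 8.56 TPM in RKO shCKAP2L libraries, against 23.99 to 25.75 TPM in NC libraries. TPM gives a gene's share of a library's transcripts after correction for length and keeps no sequencing depth, so the depth is unknown and the precision of a value rests on the spread of 3 libraries. Between 14181 and 16684 genes were above 0 per library. No label describes replicates as separate cultures, so the p-values rest on a spread between libraries that may be technical only. Replicates 2 and 3 of RKO shCKAP2L carry other gene symbols in their genotype labels, while their titles name CKAP2L and their CKAP2L levels, 7.82 and 8.56 TPM, were close to the 7.59 TPM of replicate 1. Of 10 colon epithelium markers, 7 had a mean of at least 1 TPM in HCT116 and 4 in RKO, where CDH1 and CDX1 were listed at 0 in every library. Summed immune markers stayed at or below 2.06 TPM and summed endothelial markers at or below 1.15 TPM in every library. Of 6 fibroblast markers, only COL1A1 in HCT116 had a mean of at least 1 TPM.

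In the control libraries, EXO1 and PMS2 were the most abundant of the 6 mRNAs in HCT116, and EXO1 and MSH6 in RKO. The levels of the 2 lines are set side by side and not tested, since they come from tables that were normalised separately. In vector HCT116, EXO1 averaged 25.96 ± 0.787 TPM, PMS2 24.54 ± 1.37, MSH6 14.98 ± 0.368, PMS1 13.91 ± 1.13, MLH3 4.36 ± 0.506 and MSH3 2.54 ± 0.14 TPM (SD, n = 3). The ranges of EXO1 and PMS2 overlapped there, as did those of MSH6 and PMS1, so the order within each pair is not resolved. In NC RKO, EXO1 averaged 41.55 ± 1.69 TPM, MSH6 41.33 ± 1.66, PMS2 14.89 ± 0.972, PMS1 12.86 ± 0.11, MLH3 11.09 ± 0.6 and MSH3 4.29 ± 0.186 TPM (SD, n = 3). EXO1 and MSH6 overlapped in RKO, and the remaining neighbours in this order did not. MSH3 was the lowest of the 6 in every library. By its mean over all 6 libraries of a line, manipulated and control, it ranked at percentile 35.9 of the genes above 0 in HCT116 and percentile 35.4 in RKO. By the same means, MSH6 stood at percentile 59.5 in HCT116 and 74.2 in RKO, and PMS2 at percentile 71.2 in HCT116 and 54.1 in RKO.

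**Figure D1:**
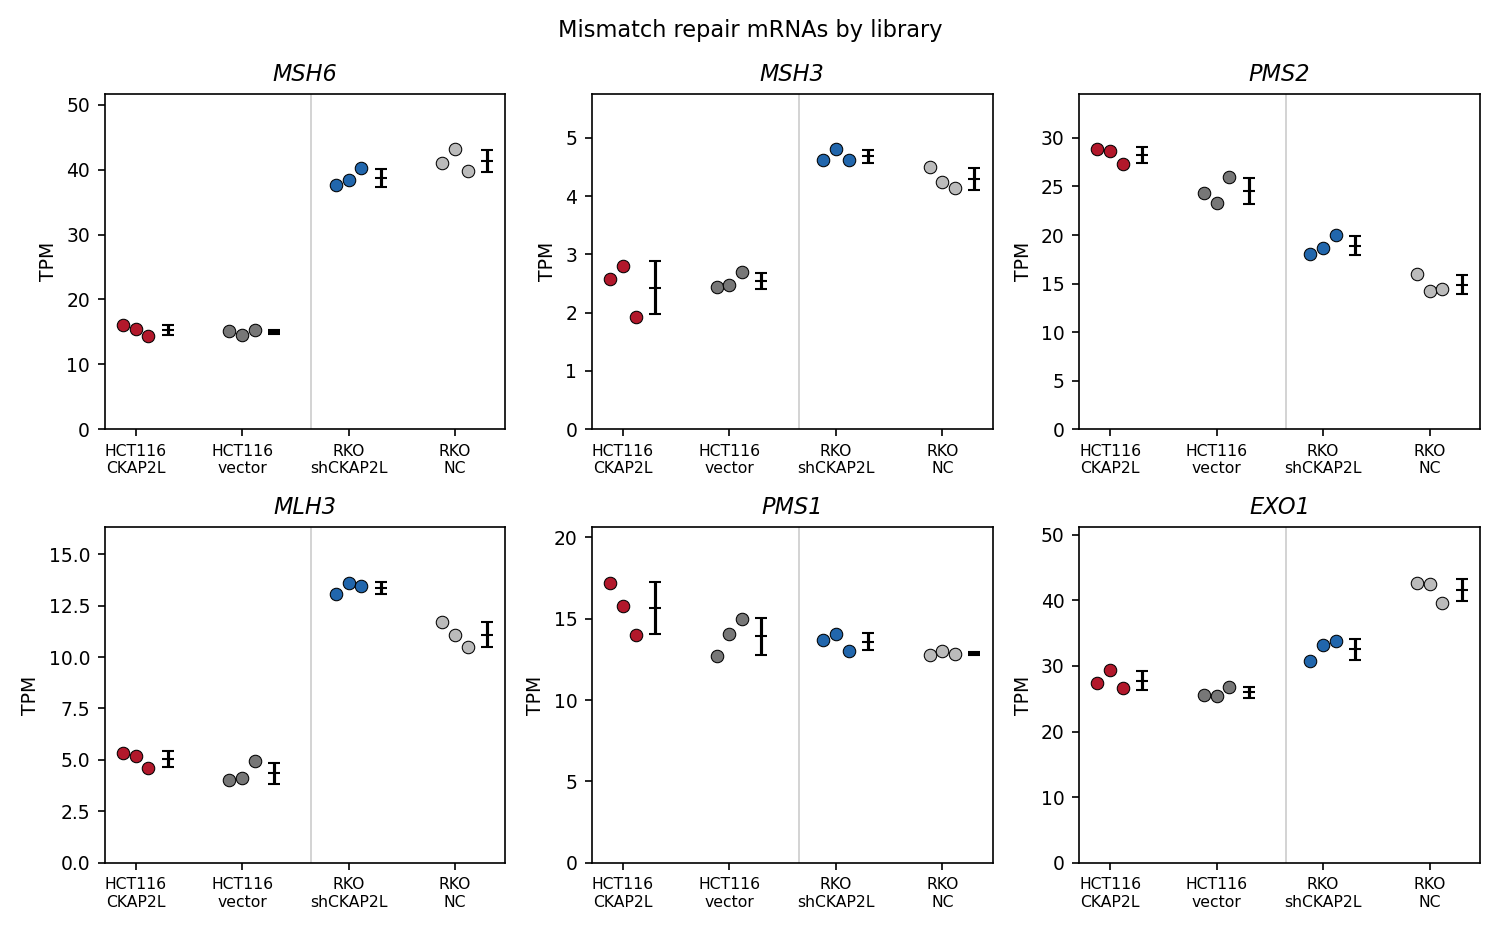
TPM of the 6 mismatch repair genes in each of 12 libraries (points), by group; the bar beside each group is its mean ± SD (n = 3). MSH6, MLH3, MSH3 and EXO1 were higher in both RKO groups than in any HCT116 library, and PMS2 was lower. Within RKO the shCKAP2L libraries had more PMS2 and MLH3 and less EXO1 than the NC libraries.

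The subunits that find the mismatch showed little difference with CKAP2L. MSH6 was at 16.01, 15.44 and 14.39 TPM in HCT116 CKAP2L libraries, against 15.16, 14.56 and 15.23 TPM in vector libraries. The groups overlapped and the log2 difference was 0.03 ± 0.057 (SE; limma, adjusted p = 0.795). Its sign was negative under each of 3 other scalings. In RKO, MSH6 was at 37.58, 38.36 and 40.22 TPM in shCKAP2L libraries, against 41.05, 43.11 and 39.82 TPM in NC libraries. The highest shCKAP2L library exceeded the lowest NC library. The fitted difference passed the threshold narrowly, at -0.09 ± 0.037 (limma, adjusted p = 0.0395), and no longer passed in 10 of 16 alternative analyses, among them those without shCKAP2L replicate 1 or 2 or NC replicate 1 or 2, where the adjusted p ran from 0.0677 to 0.169. Under median-of-ratios rescaling it was -0.04 (adjusted p = 0.296).

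MSH3 was at 2.57, 2.8 and 1.92 TPM in HCT116 CKAP2L libraries, against 2.44, 2.48 and 2.7 TPM in vector libraries, with 1 CKAP2L library below the others. The log2 difference was -0.05 ± 0.11 (limma, adjusted p = 0.774; 95% interval -0.29 to 0.18). It was 0.06 (adjusted p = 0.75) without CKAP2L replicate 3. In RKO, MSH3 was at 4.62, 4.8 and 4.62 TPM in shCKAP2L libraries, against 4.5, 4.24 and 4.14 TPM in NC libraries. All shCKAP2L libraries were above all NC libraries, but the difference did not pass (log2 difference 0.10 ± 0.058; limma, adjusted p = 0.128; 95% interval -0.02 to 0.23). It passed under median-of-ratios rescaling (0.15, adjusted p = 0.0217) and with a constant prior variance (0.10, adjusted p = 0.0319).

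Among the MutL genes, PMS2 was higher in the manipulated cells of both lines, although CKAP2L had been moved in opposite directions. In HCT116, PMS2 was at 28.81, 28.69 and 27.32 TPM in CKAP2L libraries, against 24.28, 23.31 and 26.02 TPM in vector libraries. In RKO it was at 18.04, 18.67 and 19.99 TPM in shCKAP2L libraries, against 16.01, 14.26 and 14.4 TPM in NC libraries. The groups did not overlap in either line. PMS2 rose by 0.20 ± 0.051 on the log2 scale in HCT116 (limma, adjusted p = 0.0149) and by 0.33 ± 0.05 in RKO (limma, adjusted p = 3.39e-05). The HCT116 call was lost without CKAP2L replicate 1 (0.18, adjusted p = 0.0665), without CKAP2L replicate 2 (0.19, adjusted p = 0.0577), without vector replicate 2 (0.16, adjusted p = 0.0647) and in TPM recomputed without mitochondrial mRNAs (0.15, adjusted p = 0.0542). PMS2 has near-identical pseudogene copies in the genome, and the treatment of reads that match several places, not given in the sources used here, leaves its level uncertain.

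MLH3 was at 5.34, 5.2 and 4.59 TPM in HCT116 CKAP2L libraries, against 4.03, 4.1 and 4.94 TPM in vector libraries. The groups overlapped through CKAP2L replicate 3 and vector replicate 3, and the difference did not pass (log2 difference 0.18 ± 0.09; limma, adjusted p = 0.183; 95% interval -0.02 to 0.37). In RKO, MLH3 was at 13.05, 13.6 and 13.44 TPM in shCKAP2L libraries, against 11.7, 11.06 and 10.5 TPM in NC libraries. These groups were apart, and MLH3 rose by 0.25 ± 0.047 (limma, adjusted p = 0.000214).

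PMS1 was at 17.2, 15.77 and 14.03 TPM in HCT116 CKAP2L libraries, against 12.72, 14.04 and 14.97 TPM in vector libraries. The spread within each group was as wide as the distance between them (log2 difference 0.16 ± 0.075; limma, adjusted p = 0.151). In RKO it was at 13.68, 14.05 and 13.04 TPM in shCKAP2L libraries, against 12.79, 12.99 and 12.81 TPM in NC libraries. The shCKAP2L libraries lay above the NC libraries by a small margin that did not pass (0.07 ± 0.043; limma, adjusted p = 0.14). Under median-of-ratios rescaling the same difference was 0.13 (adjusted p = 0.0117), under quantile normalization 0.11 (adjusted p = 0.0272) and without mitochondrial mRNAs 0.11 (adjusted p = 0.0298).

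EXO1, the exonuclease, had the clearest fall. In RKO it was at 30.73, 33.17 and 33.75 TPM in shCKAP2L libraries, against 42.64, 42.41 and 39.61 TPM in NC libraries. Every shCKAP2L library was below every NC library, and EXO1 fell by 0.34 on the log2 scale (SE 0.041; limma, adjusted p = 2.19e-06). It was called lower in each of the 16 alternatives, with differences from -0.42 to -0.29. In HCT116 it was at 27.33, 29.33 and 26.6 TPM in CKAP2L libraries, against 25.59, 25.42 and 26.86 TPM in vector libraries. The lowest CKAP2L library was below the highest vector library, and the difference did not pass (0.09 ± 0.05; limma, adjusted p = 0.209; 95% interval -0.02 to 0.20).

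**Figure D2:**
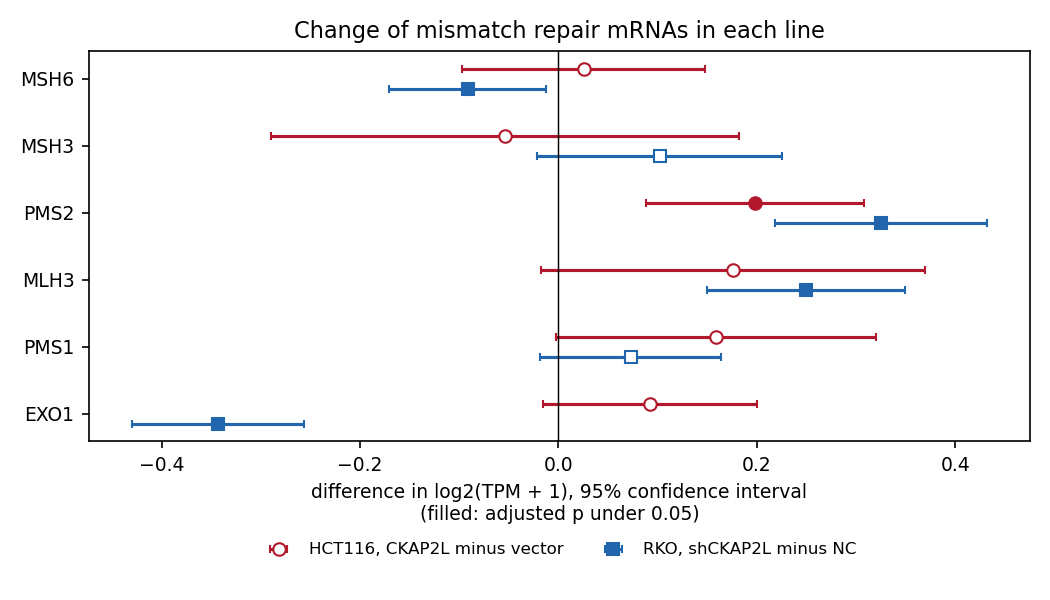
Difference in log2(TPM + 1) between manipulated and control libraries for each mismatch repair gene (points, with 95% confidence intervals from limma; n = 3 per group), circles for HCT116 and squares for RKO, filled where the adjusted p was under 0.05. PMS2 was above 0 in both lines, MLH3 was called in RKO and not in HCT116, and EXO1 lay at -0.34 in RKO and at 0.09 in HCT116.

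Counted over the 6 genes, 1 was called higher and 0 lower in HCT116 (limma, adjusted p under 0.05; 1 had an unadjusted p under 0.05), where 20.6% of all 12732 tested genes were called. In RKO, 2 were called higher and 2 lower, where 26.4% of all 11442 tested genes were called higher and 42.1% lower, 68.5% in all. The groups did not overlap for 1 of the 6 in HCT116 and 5 of the 6 in RKO, beside 37.3% and 71.4% of all tested genes. The called shares are close to the background, so they are not a result about mismatch repair genes. All 6 passed the filter of a mean of at least 1 TPM in both lines. The median log2 difference over the 6 was 0.13 in HCT116 and 0.09 in RKO, beside 0.05 and -0.05 over all tested genes. Under median-of-ratios rescaling, 4 of the 6 were higher and 1 lower in RKO, beside 34.8% of all tested genes higher and 35% lower. Without shCKAP2L replicates 2 and 3, whose genotype labels are in doubt, 2 were higher and 1 lower, beside 19% and 35% of 11410 tested genes.

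The response to CKAP2L was compared between the lines by subtracting the RKO difference (NC minus shCKAP2L) from the HCT116 difference (CKAP2L minus vector), so that both terms are higher CKAP2L minus lower CKAP2L. Line and kind of manipulation cannot be told apart in this contrast. It passed for 4 of the 6 genes, where 54.5% of genes tested in both lines passed. The difference was 0.52 ± 0.075 for PMS2 (limma, adjusted p = 1.2e-05), which was higher with the CKAP2L construct and also higher with the knockdown. It was 0.43 ± 0.098 for MLH3 (limma, adjusted p = 0.00133) and -0.25 ± 0.066 for EXO1 (limma, adjusted p = 0.00355). EXO1 ran higher with higher CKAP2L in both lines, with the smaller difference in HCT116, where it was not called. For PMS1 the contrast was 0.23 ± 0.092 (limma, adjusted p = 0.0393) and no longer passed in 13 of 22 alternatives, in which the adjusted p reached 0.122. Among these were the fits without CKAP2L replicate 1 or 2, vector replicate 1, shCKAP2L replicate 1 or 2, or any 1 NC library. It did not pass for MSH3 (0.05 ± 0.121, adjusted p = 0.756) or MSH6 (-0.07 ± 0.065, adjusted p = 0.405).

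Ratios between alternative subunits within a library do not depend on how the library was scaled. The ratio of MSH6 to MSH3 mRNA was 8.13, 7.99 and 8.71 in RKO shCKAP2L libraries, against 9.12, 10.17 and 9.62 in NC libraries. The shCKAP2L libraries were all lower, and the log2 difference was -0.22. In HCT116 this ratio averaged 6.41 ± 1 in CKAP2L libraries and 5.91 ± 0.288 in vector libraries (SD, n = 3 each), and the groups overlapped. The ratio of PMS2 to PMS1 was 1.32, 1.33 and 1.53 in RKO shCKAP2L libraries, against 1.25, 1.1 and 1.12 in NC libraries, again with no overlap. It averaged 1.81 ± 0.136 in HCT116 CKAP2L libraries and 1.77 ± 0.127 in vector libraries (SD, n = 3 each), which overlapped.

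PMS2 and MLH3 kept closer proportions. Their ratio averaged 1.41 ± 0.0636 in RKO shCKAP2L libraries and 1.34 ± 0.0465 in NC libraries, and 5.62 ± 0.293 in HCT116 CKAP2L libraries and 5.66 ± 0.379 in vector libraries (SD, n = 3 each). Its RKO groups were separated only narrowly, since the lowest shCKAP2L ratio was 1.373 and the highest NC ratio 1.371. PMS2 was thus more abundant relative to MLH3 in every HCT116 library than in any RKO library. For the 3 ratios in RKO the exact permutation test (two-sided) gave p = 0.1 each, the smallest that 3 against 3 libraries allow, so none could pass 0.05. In HCT116 the exact p was 0.6 for MSH6 to MSH3, 0.7 for PMS2 to PMS1 and 0.9 for PMS2 to MLH3. Adjusted over the 6 comparisons, the lowest p was 0.2.

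**Figure D3:**
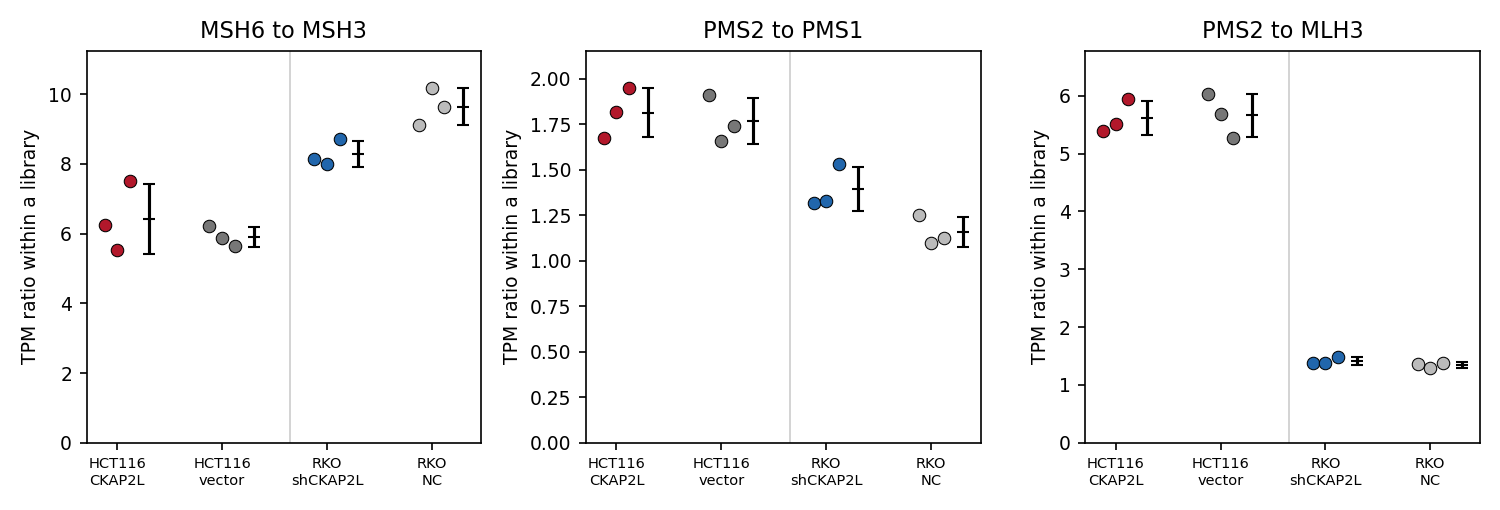
Ratio of TPM between alternative mismatch repair subunits in each of 12 libraries (points), by group, with mean ± SD (n = 3). In RKO the shCKAP2L libraries had lower MSH6 to MSH3 ratios (7.99 to 8.71) than the NC libraries (9.12 to 10.17), and PMS2 to MLH3 was near 5.6 in HCT116 and near 1.4 in RKO.

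The genes that start beside PMS2 and PMS1 were higher in both lines. AIMP2 was at 59.1, 60.49 and 58.95 TPM in HCT116 CKAP2L libraries, against 51.56, 50.2 and 54.03 TPM in vector libraries. In RKO it was at 29.31, 29.8 and 32.82 TPM in shCKAP2L libraries, against 25.06, 25.21 and 25.56 TPM in NC libraries. AIMP2 rose by 0.19 ± 0.04 in HCT116 (limma, adjusted p = 0.0041) and by 0.27 ± 0.041 in RKO (limma, adjusted p = 3.72e-05), beside 0.20 and 0.33 for PMS2. Both genes of this pair, which face away from the stretch printed above, were thus called higher in both lines. Of all tested genes, 16.4% were called higher in HCT116 and 26.4% in RKO. The HCT116 call of PMS2 was lost in 4 of 15 alternatives, and AIMP2 and ORMDL1 were not followed in the alternatives.

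ORMDL1, on the other side of the PMS1 start, averaged 21.68 ± 1.05 TPM in HCT116 CKAP2L libraries and 17.47 ± 0.855 TPM in vector libraries (SD, n = 3 each). It averaged 45.5 ± 0.925 TPM in RKO shCKAP2L libraries and 37.37 ± 0.89 TPM in NC libraries (SD, n = 3 each). ORMDL1 rose by 0.30 ± 0.056 in HCT116 (limma, adjusted p = 0.00222) and by 0.28 ± 0.032 in RKO (limma, adjusted p = 1.87e-06), while PMS1 was not called in either line. FBXO11, a ubiquitin ligase subunit gene that overlaps MSH6 on the opposite strand and was added after its values were seen, rose by 0.14 ± 0.039 in RKO (limma, adjusted p = 0.0044), where MSH6 was at -0.09. The strand setting of the counting was not given in the sources used here, so reads from the overlapping exons of PMS1 and ORMDL1 and of MSH6 and FBXO11 may not have been told apart.

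**Figure D4:**
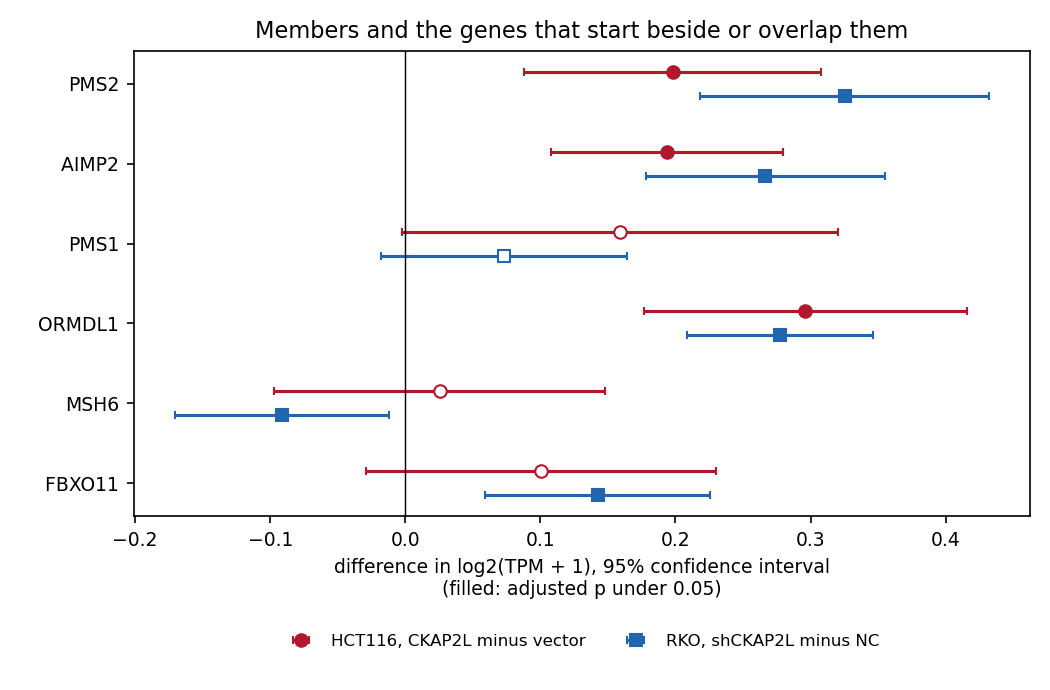
Difference in log2(TPM + 1), with 95% confidence intervals from limma (n = 3 per group), for PMS2, PMS1 and MSH6, each above the gene that starts beside it or overlaps it; circles are HCT116, squares RKO, filled where the adjusted p was under 0.05. PMS2 and AIMP2 lie close together in both lines, and in RKO MSH6 and FBXO11 lie on opposite sides of 0.

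The rest of the pathway was described with a list of 20 genes for the steps after recognition, for accessory factors and for related meiotic genes. It holds PCNA (the sliding clamp), the RFC1 to RFC5 clamp loader, the RPA1 to RPA3 single-strand binding complex, the POLD1 to POLD4 subunits of DNA polymerase delta, the ligase LIG1, HMGB1, the histone methyltransferase SETD2, whose mark MutSα binds, the helicases MCM8 and MCM9, and the meiotic MutS genes MSH4 and MSH5. In RKO, 11 of 19 tested genes fell and 5 rose with shCKAP2L, against 42.1% and 26.4% of all tested genes. The median log2 difference of these 19 was -0.09. With median-of-ratios rescaling, 9 of the 19 fell and 5 rose in RKO, against 35% and 34.8% of all tested genes. PCNA averaged 392.9 TPM in shCKAP2L libraries and 467.1 TPM in NC libraries and fell by 0.25 (SE 0.024; limma, adjusted p = 2.05e-07). RFC2 fell by 0.25 (SE 0.028), RFC5 by 0.25 (SE 0.04) and SETD2 by 0.22 (SE 0.036), each with an adjusted p of 5.31e-05 or less (limma).

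The 5 genes of this list that rose in RKO were POLD4 (0.39 ± 0.053), RPA1 (0.22 ± 0.033), POLD2 (0.16 ± 0.026), RFC1 (0.09 ± 0.033) and MCM9 (0.18 ± 0.072), with adjusted p from 1.01e-05 to 0.034 (limma). MCM9, POLD3, RPA2, RPA3 and, in RKO, POLD1 were singled out after their values were seen. Subunits of 1 complex thus moved both ways. POLD2 and POLD4 rose while POLD3 fell by 0.22 and POLD1 by 0.09. The POLD1 groups overlapped, and its call was narrower (limma, adjusted p = 0.0267). RPA1 rose while RPA3 fell by 0.18 and RPA2 was at -0.01 (limma, adjusted p = 0.678). In HCT116, 3 of 20 rose and 3 fell, against 16.4% and 4.26% of all tested genes; their median log2 difference was 0.00. POLD1 fell by 0.21 (SE 0.038; limma, adjusted p = 0.00206), RFC5 by 0.14 (SE 0.039; adjusted p = 0.0187) and PCNA by 0.10 (SE 0.03; adjusted p = 0.0342). MSH4 rose by 0.49 ± 0.134 from a low level, with 2.61 TPM in CKAP2L libraries and 1.59 TPM in vector libraries (limma, adjusted p = 0.019). POLD4 rose by 0.21 ± 0.067 (adjusted p = 0.0411) and SETD2 by 0.16 ± 0.053 (adjusted p = 0.0481). With median-of-ratios rescaling, 1 rose and 5 fell, against 8.86% and 9.33% of all tested genes. The HCT116 count of 6 calls rested on single libraries, with 1 call left without CKAP2L replicate 1 and 2 without any 1 of CKAP2L replicates 2 and 3 and vector replicates 1 and 2.

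**Figure D5:**
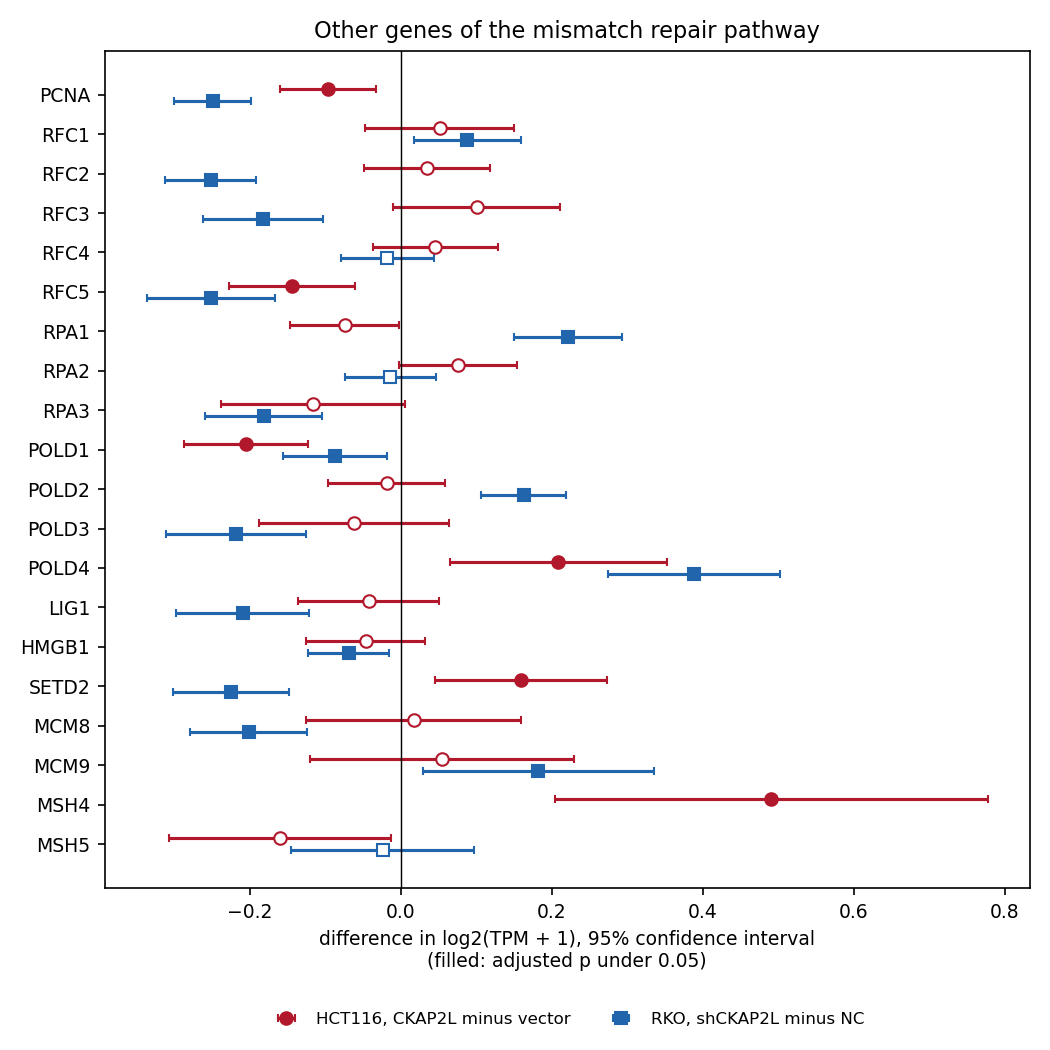
Difference in log2(TPM + 1), with 95% confidence intervals from limma (n = 3 per group), for 20 other genes of the pathway; circles are HCT116, squares RKO, filled where the adjusted p was under 0.05. Most RKO squares lie below 0, with POLD4, RPA1, POLD2, RFC1 and MCM9 above it; MSH4 was not tested in RKO because its mean was under 1 TPM.

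Most of the cell cycle genes listed were called lower in RKO, and 6 of each list in HCT116, although CKAP2L was moved in opposite directions. EXO1 fell in RKO and was not called in HCT116. The summed level of 12 S phase genes was 1328 to 1358 TPM in shCKAP2L libraries, against 1513 to 1563 TPM in NC libraries, and 9 of the 12 fell while 2 rose (42.1% and 26.4% of all tested genes). The sum of 10 G2 and M genes was 914.3 to 935.1 TPM in shCKAP2L libraries, against 1264 to 1315 TPM in NC libraries, and all 10 fell. In HCT116 the S phase sum was 1007 to 1018 TPM in CKAP2L libraries, against 1057 to 1123 TPM in vector libraries, and 6 of 12 fell while 1 rose, against 4.26% and 16.4% of all tested genes. The G2 and M sum in HCT116 was 753.6 to 766.9 TPM in CKAP2L libraries, against 817.9 to 856.4 TPM in vector libraries, and 6 of 10 fell while 0 rose. EXO1 had a difference of 0.09 there that did not pass. These HCT116 calls depended on the setting. Without CKAP2L replicate 1, 3 of the 12 S phase genes and 3 of the 10 G2 and M genes were lower and 0 higher, beside 2.33% of genes lower and 9.3% higher. Without CKAP2L replicate 3, 3 of the 10 G2 and M genes were lower, beside 327 of all 12725 tested genes. With no filter on low values 3 of the 10 were lower, beside 341 of 18117. With a constant prior variance 2 of each list were lower, beside 2.1% of genes lower and 11.2% higher, and under median-of-ratios rescaling 9 of each, with 0 higher in both settings. The part of these shifts in the values of EXO1 and MSH6 was not tested, and in bulk RNA fewer cells in a phase and less mRNA per cell cannot be told apart.

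The genes whose values ran most like each member over the 12 libraries were found by Pearson's r of log2(TPM + 1), centred on each line's mean, among 11017 genes tested in both lines. These r values are descriptions; the libraries form 4 groups, so r follows mostly the group differences. For EXO1 they were PEDS1 (0.985), AKIRIN2 (0.982) and ADGRA3 (0.981). For PMS2 they were NEO1 (0.98), NAT10 (0.972) and CDC25B (0.971), and for MLH3 MYOF (0.977), PLEKHO2 (0.977) and SNX5 (0.972). PMS1 ran most like CREB1 (0.947), with SLF2 at 0.922. The nearest genes were less alike for MSH6, with CLEC16A at 0.902, SESN1 at 0.901 and VTI1A at 0.893, and for MSH3, with HEATR5A at 0.897, STXBP4 at 0.874 and ZYG11B at 0.867.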

How the data were processed

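For each line the authors deposited a table of TPM. The submitters' processing notes name HISAT2 2.0, bedtools 2.26.0, Trimmomatic 0.36, FastQC 0.11.2 and GRCh38, with the counting tool, annotation and strand setting not given in the sources used here. Per the labels' protocols, libraries came from an mRNA kit. Of the identifiers, 20148 took a symbol from a name table, 76 from GENCODE 29 and 39 none. Groups and replicate numbers were taken from titles.

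Values were analysed as log2(TPM + 1), per line, for genes with a mean of at least 1 TPM, by two-sided limma tests (version 3.58.1, R 4.3.3) without covariates and with a trended prior variance. P-values were adjusted over all tested genes by the Benjamini-Hochberg method, and a gene was called at an adjusted p under 0.05. Differences on this scale understate changes of low genes; ± after one is its SE. The fits were tested on simulated data. All members were named, with up to 4 pathway genes per line and direction by smallest adjusted p, genes starting within 1000 bases on the opposite strand, and the 3 most alike genes per member. Some genes of the pathway or named by this rule are not reported here. Members and lists were chosen with earlier results of these data known. Alternatives covered the pseudocount, filter, scaling, prior, replicate block and libraries left out.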

Additional observations from a re-analysis of the deposited data

Results flagged for a closer look

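In a group of 3 libraries no test for an outlying library was made. The HCT116 difference (CKAP2L minus vector) less the RKO difference (NC minus shCKAP2L) passed in limma, in the joint fit of 12 libraries, for 4 of the 6 genes, beside 54.5% of all genes tested in it. The values were 0.426 for MLH3, 0.232 for PMS1, 0.523 for PMS2 and -0.251 for EXO1, on the log2 scale. For manipulated against control libraries, PMS2 had the same sign of change in both lines. EXO1 had opposite signs in that comparison, of which only the fall in RKO passed on its own. As higher minus lower CKAP2L, EXO1 was positive in both lines, and PMS2 was positive in HCT116 and negative in RKO. Line and manipulation cannot be told apart in these values.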

How the results depend on the processing

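In RKO, the calls of EXO1, PMS2 and MLH3 held in all 16 alternatives. The RKO count of called members ran from 3 to 5 and the count in the contrast between lines from 3 to 4. In the main fits, 68.5% of all tested genes were called in RKO and 54.5% in the contrast. The HCT116 count of 1 member (PMS2) became 0 in TPM without mitochondrial mRNAs and ran from 0 to 1 when single libraries were left out. The 6 called pathway genes in HCT116 became 2 with no filter on low values and 1 with a constant prior variance, and 1 to 7 when single libraries were left out. The 2625 genes called in HCT116 (2082 higher, 543 lower) became 1689 with a constant prior variance and 1479 to 3428 when single libraries were left out; the lowest were 1479 without CKAP2L replicate 1 and 1717 without CKAP2L replicate 2. After median-of-ratios rescaling 1128 were higher and 1188 lower. In RKO it gave 3987 higher and 3999 lower, in place of 3019 and 4819. Leaving out single libraries, the log2 difference of the ratio MSH6 to MSH3 ran from -0.01 to 0.21 in HCT116 and from -0.26 to -0.18 in RKO, and that of PMS2 to PMS1 from 0.20 to 0.32 in RKO.

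Signs turned for uncalled differences alone. MSH6 in HCT116 was at -0.0295 under median-of-ratios rescaling, -0.0568 under quantile normalization and -0.0197 without mitochondrial mRNAs. With single libraries left out it ran from -0.00671 to 0.0655. MSH3 in HCT116 ran from -0.132 to 0.058 in the same way, and its contrast between lines from -0.0299 to 0.16; that contrast was -0.0558 under quantile normalization. The cause was not tested. Over the members' differences, 274 alternative values kept direction and side of the threshold, 27 lost the call, 5 gained it and 7 turned sign.

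Replicate numbers did not pair the libraries: the correlation of deviations of same-numbered libraries ran from -0.0881 to 0.0486. With the replicate block, 1 member was called in HCT116, 4 in RKO and 3 in the contrast between lines, where PMS1 was lost (adjusted p = 0.0707). Beside these, 2200 of all 12732 tested genes were called in HCT116, 7861 of 11442 in RKO and 5712 of 11024 in the contrast. MLH3 and MSH3 in HCT116, and MSH3 in RKO, gave no value with a minimum mean of 5 TPM, being below it. Where 1 shCKAP2L library was left, it was assumed to vary like the other group. Low levels limit MSH3 most, since the depth is unknown and its SE was the largest of the 6 in both lines.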
